A study of Homo sapiens with 2 samples.

Results

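The OAS and MX genes are antiviral genes that cells induce in response to interferon, and 6 of them were described here: OAS1, OAS2, OAS3 and OASL of the oligoadenylate synthetase family, and MX1 and MX2 of the MX family of large GTPases. They were selected on these measurements, by the ratio between the arrays (periostin siRNA over control siRNA), so these ratios are a description of the genes and not a test of them. Each probe of these genes was found through the RefSeq transcript that the scanner files list for it, which gave 9 probes of 6 genes, 7 for the OAS genes and 2 for the MX genes, among 50599 probes and 21743 named genes on the array. All 6 genes were well above background on at least 1 array, and 5 of them on both.

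The study compared the gene expression of MRC-5 cells, a widely used cell line of fibroblasts from human fetal lung, with and without knockdown of periostin, an extracellular matrix protein encoded by POSTN. The cells of one group carried periostin siRNA at 10 nM for 48 h. The cells of the other carried a control siRNA, whose dose and time are not stated for the arrays in the sources used here. Both siRNAs were delivered by the same lipid reagent per the methods of the study, and untransfected cells were not analysed here. RNA of 1 culture per group was hybridized to 1 single-colour Agilent array, both on the same slide and scanned together. The number of arrays limits the precision: there was no replicate culture, so no difference below was tested, no p-value is given, and an effect of the siRNA, of periostin and of the culture cannot be told apart.

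The OAS proteins are enzymes that bind double-stranded RNA, a product of many viral infections, and then join ATP into short oligoadenylates with an unusual linkage, known as 2-5A. The oligoadenylates act as a second messenger of the antiviral response. OASL has the OAS fold but lacks this synthetase activity. The MX proteins are GTPases of the dynamin superfamily that assemble on viral components, MX1 being known for blocking influenza virus and MX2 for blocking HIV-1. Transcription of these genes is driven in textbook accounts by ISGF3, a transcription factor complex that assembles after interferon has bound its receptor and that recognises an interferon-stimulated response element in the promoter.

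The promoters are shown as a description. Textbook accounts place these genes under the interferon-stimulated response element, so a match was likely whatever the arrays showed. The RefSeq windows, 250 bases before to 50 bases after an annotated start on GRCh38.p14, were held for OAS1 and OAS3 with 1 window each and for MX1 with 3 windows at separate annotated starts, but not for OAS2, OASL and MX2. Each window was searched on both strands for GAAA repeated after any 2 bases (the longer form) and for GAAA repeated after any 1 base (the shorter form, GAAANGAAA), which can overlap each other by 4 bases. In the sequences below, written 5′ to 3′ on the plus strand, capitals mark every match to either form, so that TTTCCTTTC is a match on the minus strand.

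OAS1, chr12:112906712-112907011, plus strand: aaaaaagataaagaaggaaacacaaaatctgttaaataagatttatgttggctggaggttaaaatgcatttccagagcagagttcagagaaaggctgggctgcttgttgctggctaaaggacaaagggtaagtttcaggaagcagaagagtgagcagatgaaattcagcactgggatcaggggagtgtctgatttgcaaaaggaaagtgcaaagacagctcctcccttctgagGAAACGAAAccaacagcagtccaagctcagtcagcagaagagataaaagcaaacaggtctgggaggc

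OAS3, chr12:112938224-112938523, plus strand: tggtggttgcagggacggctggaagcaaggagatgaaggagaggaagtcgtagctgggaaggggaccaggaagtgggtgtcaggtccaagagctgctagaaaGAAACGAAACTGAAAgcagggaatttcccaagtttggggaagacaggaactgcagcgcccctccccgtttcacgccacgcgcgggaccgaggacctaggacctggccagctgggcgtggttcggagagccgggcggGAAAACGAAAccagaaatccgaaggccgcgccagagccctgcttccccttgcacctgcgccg

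MX1, chr21:41420308-41420607, plus strand: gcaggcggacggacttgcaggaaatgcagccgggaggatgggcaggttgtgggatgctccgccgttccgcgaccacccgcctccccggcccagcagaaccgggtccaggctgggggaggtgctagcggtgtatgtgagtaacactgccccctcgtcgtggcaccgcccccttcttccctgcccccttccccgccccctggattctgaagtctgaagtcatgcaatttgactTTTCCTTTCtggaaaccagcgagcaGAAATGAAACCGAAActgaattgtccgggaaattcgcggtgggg

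The OAS1 window held 1 match, GAAACGAAA, starting 17 bases before the start site. The OAS3 window held 3 matches: GAAACGAAA overlapping GAAACTGAAA, starting 148 and 143 bases before the start site, and GAAAACGAAA, starting 12 bases before it. The MX1 window printed here held GAAAGGAAA on the minus strand, 19 bases before the start site, and GAAATGAAA overlapping GAAACCGAAA, with first bases 6 and 11 bases after it. The other MX1 windows, chr21:41425989-41426288 and chr21:41431800-41432099, held 2 matches to the shorter form and 1 match to the longer form, all on the minus strand. Of all 35116 RefSeq windows of this length, 3.57% held the longer form, 3.12% held the shorter form and 6.4% held either form, and counted by gene this was 7.83% of 27305 genes. Each of the 3 OAS and MX genes with a window thus held at least 1 match, MX1 having been searched in 3 windows. Nothing about the ratios is read from this, since such genes are known for the motif. These matches are a description of the letters in these windows and were not measured as binding.

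The signal of each array was scaled to the same 75th percentile, 377 in scanner units, so that a scaled signal of 377 lies at the 75th percentile of either array. A probe counted as well above background by the flag of the scanner software, and the lowest scaled signal with that flag was 7.55 (control siRNA) and 7.77 (periostin siRNA). POSTN, whose transcript the siRNA targets, had a scaled signal of 2638 with control siRNA and 280 with periostin siRNA, giving a log2 ratio of -3.24 ± 0.20 (propagated error, 1 spot), in the direction of the labels. The markers of fibroblasts, 10 of 10, were well above background on both arrays, with a median log2 ratio of -0.10 and a range from -0.90 for PDGFRA to 0.83 for LUM. In bulk RNA, fewer cells of a type and less RNA per cell cannot be told apart.

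The OAS and MX genes were higher with periostin siRNA than with control siRNA in 6 of 6 cases, but by very different amounts. OAS1, OAS2 and MX1 were more than 3-fold higher, 3-fold being the threshold that the study used, OAS3 lay between 2-fold and 3-fold, and OASL and MX2 were less than 1.5-fold higher. Of all 16052 genes with a ratio, 3.37% were more than 3-fold higher and 2.75% more than 3-fold lower, and 54.5% were higher by any amount. Because the genes were chosen for this ratio, nothing is read from their count of 3 of 6. Their median log2 ratio was 2.21, with OAS1 entered at its bound, and 1.35 over the 5 genes well above background on both arrays, beside a median of 0.06 over all genes with a ratio. The middle 95% of those genes lay between -1.66 and 1.79. The ratios of the OAS and MX genes ran from 0.45 for MX2 to 3.82 for OAS2. OAS1, OAS2 and MX1 were also past 4-fold, as were 1.73% of all genes with a ratio.

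**Figure D1:**
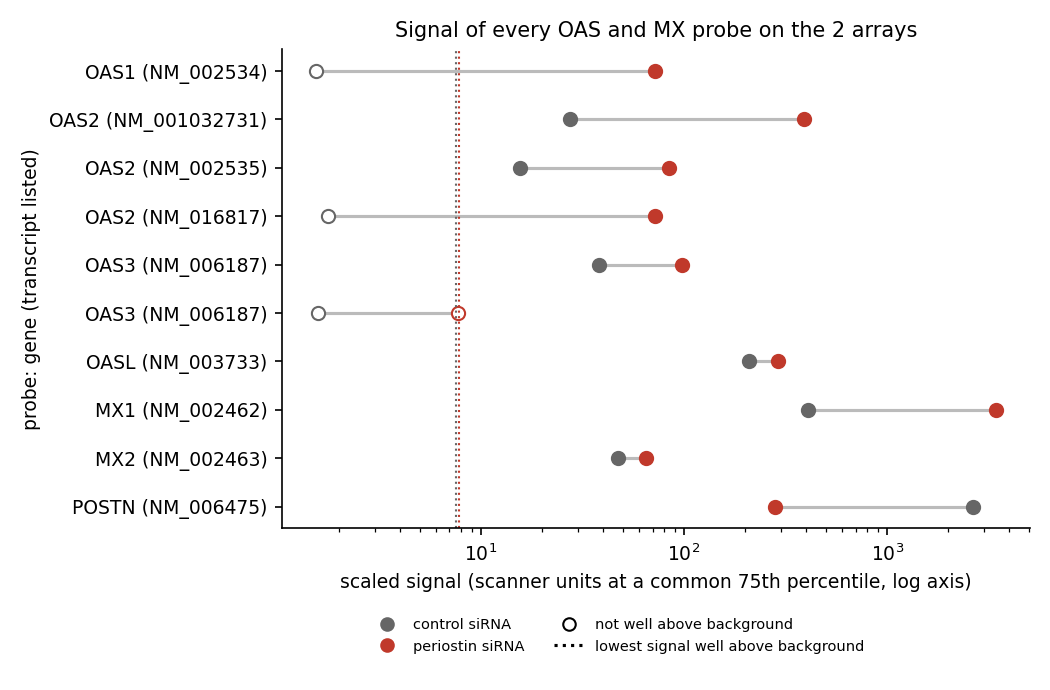
Scaled signal of the 9 OAS and MX probes and of the POSTN probe with control siRNA (grey) and periostin siRNA (red), on a log axis in scanner units at a common 75th percentile, with 1 spot per point and the RefSeq transcript of each probe in parentheses. Open points were not well above background, dotted lines mark the lowest scaled signal that was, and the red point lies to the right of the grey point for every OAS and MX probe and to the left of it for POSTN.

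OAS1 makes the smallest synthetase of the family, with a single OAS unit. Its probe, listed for NM_002534, had a scaled signal of 1.54 with control siRNA, which was not well above background, and 71.8 with periostin siRNA, which was. OAS1 thus had a measured level with periostin siRNA alone, and its ratio is a lower bound, at least 9.51-fold higher (log2 3.25), taken against 7.55, the lowest scaled signal with the flag under control siRNA. At the level of the pixels, the median of the spot exceeded its local background by 3 scanner units with control siRNA and by 91 with periostin siRNA. Over all 21743 genes, 2.86% were likewise well above background with periostin siRNA alone and 2.19% with control siRNA alone.

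OAS2 carries a pair of OAS units, one of them catalytically active, and was measured by 3 probes, each listed for another transcript of the gene. The probe listed for NM_001032731, the brightest of the OAS2 probes and hence used for the gene, had a scaled signal of 27.5 with control siRNA and 389 with periostin siRNA. Its log2 ratio was 3.82 ± 0.23 (propagated error, 1 spot), a 14.2-fold difference. The probe listed for NM_002535 had a scaled signal of 15.6 with control siRNA and 84.3 with periostin siRNA, giving a log2 ratio of 2.44 ± 0.26 or 5.42-fold. The probe listed for NM_016817 had 1.77 with control siRNA, not well above background, and 71.9 with periostin siRNA, at least 9.53-fold higher. All OAS2 probes were therefore more than 3-fold higher with periostin siRNA in this processing, but under the normexp background correction the probes listed for NM_002535 and NM_016817 were not, at 0.91 and a bound of 1.102 on the log2 scale. Nor did they give a single ratio: the 2 probes with a measured ratio differed by 1.39 on the log2 scale, which is 3.97 times their combined error of 0.35. Whether this difference lies in the transcripts or in the probes was not tested. OAS2 with its brightest probe had a higher ratio than all but 23 of the 16052 genes.

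OAS3 makes the largest synthetase, with repeated OAS units, and was represented by a pair of probes for the same transcript, NM_006187. The brighter one had a scaled signal of 38.3 with control siRNA and 97.4 with periostin siRNA, so that the arrays differed by a log2 ratio of 1.35 ± 0.22 (propagated error, 1 spot), or 2.54-fold. The dimmer one had 1.58 and 7.69 and was well above background on neither array, which gives no ratio. OAS3 is thus supported by 1 of its 2 probes, and 7.97% of all genes with a ratio were more than 2-fold higher. By its brightest probe, OAS2 stood 2.48 above OAS3 on the log2 scale, 7.81 times their combined error. By the other measured OAS2 probe the difference was 1.09, 3.21 times the combined error. Under the normexp background correction that probe was at 0.91 and OAS3 at 0.69. OAS1, OAS3 and OAS2 lie next to each other on chromosome 12.

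OASL, the family member without synthetase activity, has been described to enhance RNA sensing through RIGI. Its probe had a scaled signal of 210.0 with control siRNA and 289 with periostin siRNA, giving a log2 ratio of 0.46 ± 0.20 (propagated error, 1 spot), or 1.38-fold. Of the 16052 genes, 3664 had a higher ratio than OASL. OASL was the OAS gene with the smallest ratio, 0.89 below OAS3 with a combined error of 0.30, and lay just above 0.42, the upper quartile of all genes with a ratio.

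MX1, a cytoplasmic GTPase, had a scaled signal of 409 with control siRNA and 3425 with periostin siRNA. Its log2 ratio was 3.07 ± 0.20 (propagated error, 1 spot), an 8.38-fold difference. MX1 was the one gene of the 6 whose signal was above the 75th percentile of the array with control siRNA, so its ratio compares bright spots: with control siRNA the spot median exceeded the local background by 407 scanner units, and with periostin siRNA by 3408. Among the 1808 genes whose mean log2 signal lay within 0.5 of that of MX1, 0.774% were more than 3-fold higher, whereas this share was 4.87% among the genes with a mean signal like OAS2, 6.53% like OAS1 and 7.67% like OAS3.

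MX2, the relative of MX1 that is found at the nuclear envelope, had a scaled signal of 47.5 with control siRNA and 64.9 with periostin siRNA, giving a log2 ratio of 0.45 ± 0.22 (propagated error, 1 spot), or 1.37-fold. MX1 and MX2 thus differed by 2.62 on the log2 scale, 8.8 times their combined error of 0.30. MX2 and OASL, the smallest ratios of either family, differed by 0.01, with a combined error of 0.30. In the order of their ratios, OAS2 with its brightest probe stood above MX1 by 0.76, 2.45 times the combined error of 0.31. Against the other measured OAS2 probe, MX1 was higher by 0.63, 1.9 times the combined error of 0.33. The order of OAS2 and MX1 was thus not settled. MX1 stood above OAS3 by 1.72, and OASL and MX2 could not be placed in order. OAS1, with its bound of 3.25, stood above OAS3, OASL and MX2, and its order against OAS2 and MX1 was not settled. These orders describe single spots, whose errors hold no difference between probes or cultures. The 2 measured OAS2 probes alone differed by 1.39, so the order of the genes themselves was not tested.

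The errors of these single spots can be set beside the probes that the array holds 10 times. Over 119 such probes with a scaled signal between 10 and 100, the range of OAS3 and MX2, the pooled SD of the log2 ratio between spots was 0.31, larger than the propagated errors of 0.22 for both genes. Over 293 probes between 100 and 1000, the range of OASL, it was 0.09. The log2 ratio of MX2, 0.45, was thus close to the spread of single spots at its level. Those of OAS2 and MX1, 3.82 and 3.07, exceeded either spread, but both genes were chosen for this ratio, so nothing is read from this. The spread between spots holds no difference between cultures or between probes of a gene. Of the 119 probes between 10 and 100, 5.88% were themselves more than 3-fold higher. No OAS or MX probe was itself printed more than once, and none carried an outlier flag.

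**Figure D2:**
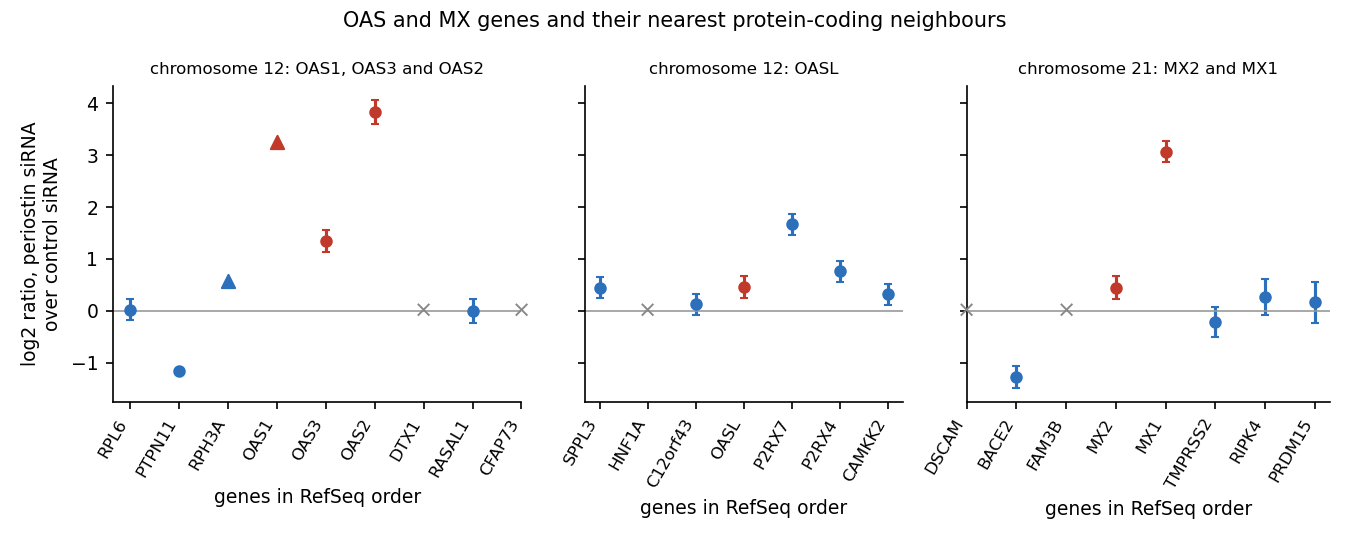
Log2 ratio of periostin siRNA over control siRNA, 1 array each, for the OAS and MX genes (red) and the 3 nearest protein-coding genes on either side of each locus (blue), in RefSeq order without distances. Bars are the propagated error of 1 spot (for PTPN11 the SD over 10 spots, smaller than its point), triangles are lower bounds and crosses are genes below background on both arrays, drawn at 0. P2RX7, next to OASL, is the one neighbour more than 3-fold higher, as were 3.37% of all genes with a ratio.

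The genes next to the OAS and MX genes were read because position was not used to choose them. Of the 18 protein-coding genes that flank the 3 loci, 3 on each side, 13 had a ratio or a bound and 5 were below background on both arrays. P2RX7, an ATP-gated ion channel gene beside OASL, had a scaled signal of 171 with control siRNA and 543 with periostin siRNA, giving a log2 ratio of 1.67 ± 0.20 (propagated error, 1 spot) or 3.17-fold, which is larger than that of OASL itself. It was the 1 neighbour of 13 more than 3-fold higher, and 0 were more than 3-fold lower, beside 3.37% and 2.75% of all genes with a ratio. Nothing is read from this count. PTPN11, a phosphatase gene near OAS1, was lower with a log2 ratio of -1.15 ± 0.05 (SD over 10 spots), and BACE2, a protease gene near MX2, was lower at -1.27 ± 0.20. Next to OAS1, RPH3A was well above background with periostin siRNA alone, with a lower bound of 0.58 on the log2 ratio. Next to MX1, TMPRSS2 had a log2 ratio of -0.21 ± 0.30, and on the far side of OAS2, RASAL1 had -0.01 ± 0.23.

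Genes that act beside 2-5A lay within 3-fold where they are named here. ABCE1, needed for ribosome recycling, had a scaled signal of 744 with control siRNA and 437 with periostin siRNA, giving a log2 ratio of -0.77 ± 0.20 (propagated error, 1 spot), with -0.83 from its other probe. PDE12 and AKAP7, which belong to the enzymes able to degrade 2-5A, had log2 ratios of -0.41 and -0.61. The dynamin superfamily relatives of the MX genes, 10 of 10 measured, had 0 members past 3-fold. Of all genes with a ratio, 3.37% were more than 3-fold higher and 2.75% lower. The median of the dynamin relatives was -0.18, from ATL3 at -0.71 to DNM2 at 0.36.

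**Figure D3:**
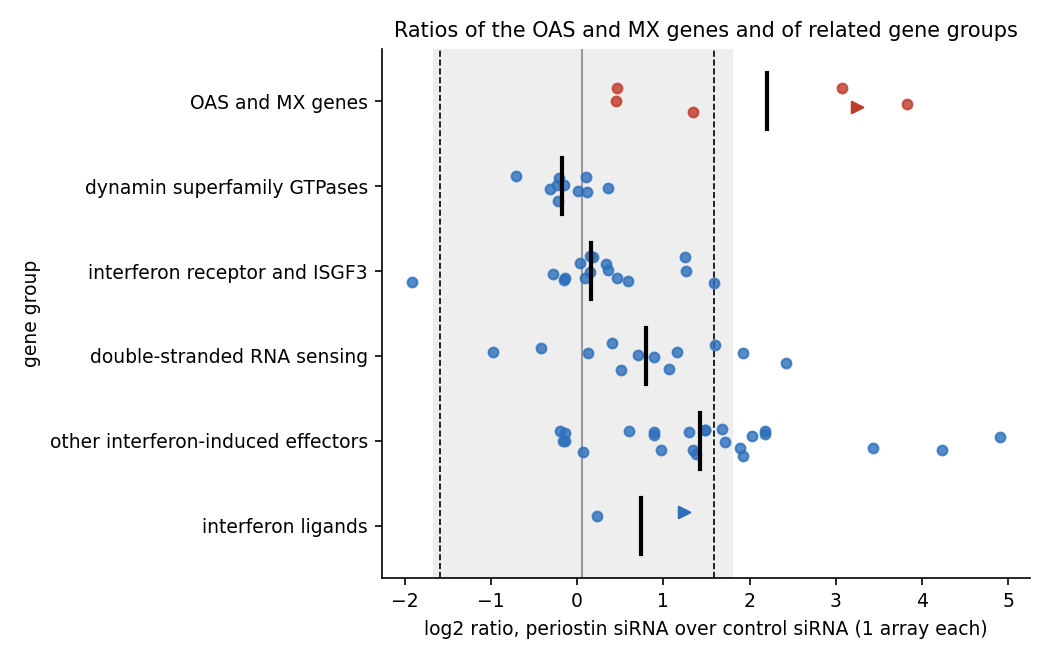
Log2 ratio of periostin siRNA over control siRNA, 1 array each, per gene (points, brightest probe) for the OAS and MX genes (red) and 5 related gene groups (blue). Triangles are lower bounds, black bars are group medians, dashed lines mark 3-fold, the grey line is the median of all genes (0.06) and the grey band holds the middle 95% of them (-1.66 to 1.79). OAS2, MX1 and OAS1 lie beyond the band, as do 8 interferon-induced effectors, the sensors IFIH1 and TLR3 on the higher side and SOCS3 on the lower side.

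Sensors and adaptors listed around the sensing of double-stranded RNA, the ligand of the OAS enzymes, were measured for 12 of 13. Not all of them bind this RNA themselves. ZBP1 was below background, and the median log2 ratio of the 12 was 0.80. More than 3-fold higher were 3 of them and lower 0, beside 3.37% and 2.75% of all genes with a ratio. The number higher was 2 under quantile normalization, median scaling and loess, beside 3.03%, 2.82% and 3.13% of all genes. It was 1 under normexp, beside 0.892%. IFIH1, the sensor MDA5, had a scaled signal of 125 with control siRNA and 668 with periostin siRNA, giving a log2 ratio of 2.42 ± 0.20 (propagated error, 1 spot). TLR3, the endosomal receptor of double-stranded RNA, had a log2 ratio of 1.92, and DHX58, a regulator of the RNA sensors, 1.60, just past 3-fold. EIF2AK2, the kinase PKR that double-stranded RNA activates as it does the OAS enzymes, had 2079 and 2956, a log2 ratio of 0.51 ± 0.20, and RIGI had 1.07. CGAS, a sensor of DNA rather than RNA, had -0.97. The adaptor MAVS had -0.42 by its brightest probe and between 0.04 and 0.32 by its other probes, so its direction was not settled.

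The receptor, kinases and transcription factors upstream of the OAS and MX genes were measured for 16 of 17. None was more than 3-fold higher, beside 3.37% of all genes with a ratio. SOCS3, a feedback inhibitor, was more than 3-fold lower at -1.92, as were 2.75% of all genes with a ratio. The median log2 ratio of the list was 0.17. The ISGF3 subunit IRF9 had a scaled signal of 840 with control siRNA and 2017 with periostin siRNA, giving a log2 ratio of 1.26 ± 0.20 (propagated error, 1 spot). STAT2, another subunit, had 0.34 ± 0.20. The receptor chains IFNAR1 and IFNAR2 had 0.15 and 0.36. SOCS1, another feedback inhibitor, had 1.58 and lay just under 3-fold, which it passed under quantile normalization, without scaling and with the percentile taken over spots that both arrays showed well above background. USP18, an interferon-induced brake on the receptor, had -0.28.

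Other genes known to be induced by interferon were matched on the array for 24 of 26, and all 24 had a ratio, with a median log2 ratio of 1.43. More than 3-fold higher were 10 and lower 0, beside 3.37% and 2.75% of all genes with a ratio. This list holds genes already known from these arrays to be high and so is no independent evidence for the OAS and MX genes. The ratios ran from IFIT5 at -0.20 to BST2, a tether of budding virus, at 4.91, with 4.21 from its other probe. IFI44L was at 4.23, XAF1 at 3.43, RSAD2, which encodes viperin, at 2.18 and IFIT1 at 1.92. ISG15, one of the best known genes of this kind and bright on both arrays, was at 0.60, ISG20 at -0.16 and IFITM3 at 0.06. The genes of this list thus varied among themselves over a wider range than that between MX2 and OAS2. In their promoters, 22 of the 23 genes of the list with a RefSeq window held either form of the motif, including IFIT5 and ISG20. In the other groups of the figure this was 5 of 8 genes of the list of sensors and adaptors and 1 of 13 receptor, kinase and transcription factor genes. It was 4 of 9 interferon genes, 0 of 10 dynamin relatives and 7.83% of all genes with a window. Whether the motif has a part in the ratios was not tested.

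The interferon genes themselves, 9 of 10 of the list on the array, were below background on both arrays in 7 cases, IFNB1 and IFNA2 among them. IFNL2, close in sequence to IFNL3 so that its signal may not be its own, had a scaled signal of 30.3 with control siRNA and a log2 ratio of 0.23 ± 0.24 (propagated error, 1 spot). IFNE was well above background with periostin siRNA alone, at least 2.36-fold higher. Of the markers of leukocytes 6 of 8 had a ratio, 0 of them past 3-fold, and their scaled signals summed to 1940 under control siRNA and 3123 under periostin siRNA. Of these sums CD68 made up 1528 and 2451, and CD14 made up 287 and 549. CORO1A, the 1 leukocyte marker with a ratio below 0, was at -0.43. PTPRC, shared by all leukocytes, had 17.6 and 25.1 by its brightest probe, while its other probes were well above background on neither array. LAPTM5 was below background on both arrays. Markers of plasmacytoid dendritic cells, known as strong interferon producers, had a ratio in 2 of 5 cases, the defining CLEC4C and LILRA4 being below background on both arrays, with a sum of 2856 and 3298, of which TCF4, a gene expressed in many cell types, made up 2835 and 3271. Of the epithelial markers, 5 of 6 had a ratio, with CDH1 below background. All 5 were above 0, with a median log2 ratio of 0.77. EPCAM was more than 3-fold higher at 1.97, as were 3.37% of all genes with a ratio. KRT19 was at 1.04, SFTPC at 0.66, KRT18 at 0.48 and KRT8 at 0.77, with 0.08 from another KRT8 probe. The epithelial markers summed to 4037 and 6078, of which KRT18 made up 3048 and 4264. Endothelial markers had a ratio in 4 of 5 cases, 0 past 3-fold, with PECAM1 below background. Their sum was 5591 and 5305, of which TEK made up 5457 and 5175. The part of any of these in the ratios of the OAS and MX genes was not tested.

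Among the genes well above background on both arrays, the 5 nearest to MX1 in both scaled log2 signals together were IMPA2, TGM2, GPR20, SYNPO and ZNF436-AS1, at Euclidean distances from 0.60 to 0.77 over the 2 arrays. The nearest, IMPA2, had a scaled signal of 620 with control siRNA and 3330 with periostin siRNA, and TGM2, a transglutaminase gene, had 308 and 2477, a log2 ratio of 3.01. None of these 5 genes is in the interferon lists above.

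**Figure D4:**
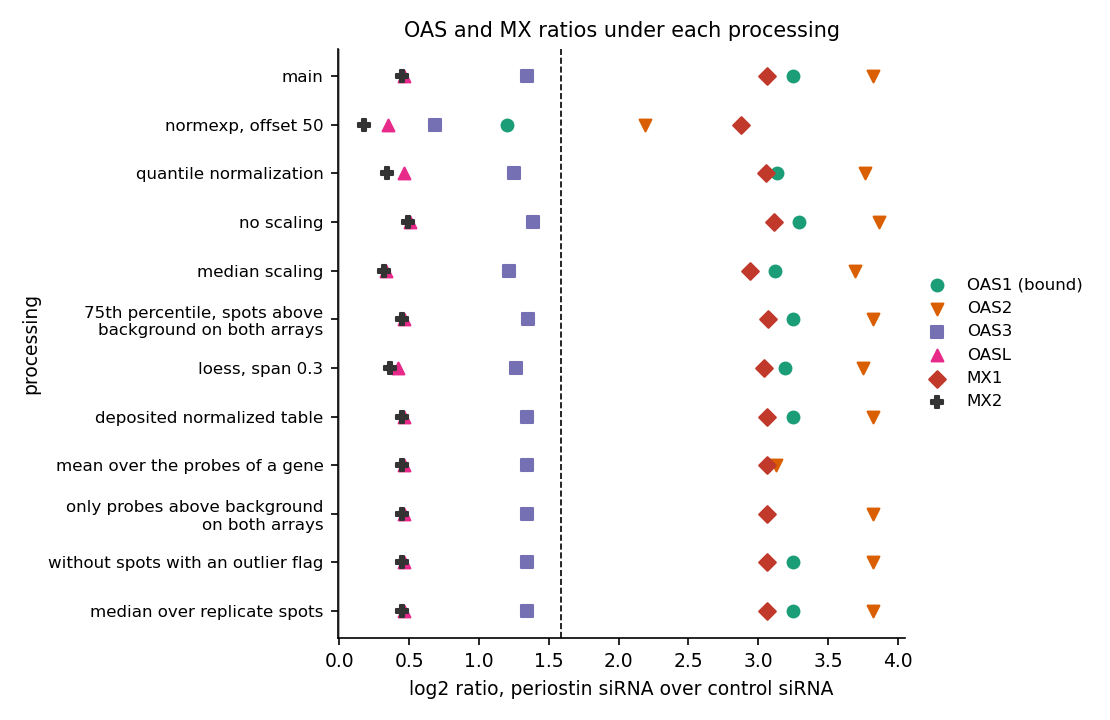
Log2 ratio of periostin siRNA over control siRNA, 1 array each, for each OAS and MX gene under the processing named on the vertical axis, with the dashed line at 3-fold and OAS1 drawn at its bound. OAS2 and MX1 stay to the right of the line throughout, OASL and MX2 to the left, and OAS1 crosses it with the normexp correction and has no value where probes had to be well above background on both arrays.

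The processing moved the dim genes most, and with them the order of OAS2 and MX1. With normexp, a correction that fits a background distribution and then adds 50 to every spot, the log2 ratio of OAS2 was 2.19, its other measured probe was at 0.91, the bound of OAS1 was 1.20 and OAS3 was at 0.69, while MX1, the brightest, was at 2.88. OAS1 was thus no longer past 3-fold, and MX1 stood above OAS2. With the mean over its measured probes, OAS2 was at 3.13, beside 3.07 for MX1. Over the 11 processings run, OAS3 lay between 0.69 and 1.39, OASL between 0.33 and 0.50, MX1 between 2.88 and 3.11 and MX2 between 0.18 and 0.49. In these, 0 of the 6 genes changed direction, but not every processing could move them. The outlier filter and the median over spots left these single unflagged spots as they were. The deposited table is the scanner signal times a constant per array. OAS1 had a value in 9 processings, and its bound cannot be negative by construction.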

How the data were processed

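RNA of MRC-5 cells with control siRNA or periostin siRNA was measured on 1 single-colour Agilent SurePrint G3 array per group. The scanner output of both arrays was deposited by the authors, and its intensity values had been background-subtracted by Feature Extraction (11.5.1.1 per the file headers, 12.0.3.1 per the labels) without scaling between arrays. They also deposited a normalized table whose intensity values were 3.65 and 3.54 times the scanner signal for 100% of the 49697 probes printed once (tolerance 0.001 on the log2 scale). Its normalization is not given in the sources used here.

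Each processed signal was divided by its array's 75th percentile over 58717 spots, controls left out (372 for control siRNA, 383 for periostin siRNA), and the log2 was taken. Of these spots, 58.0% and 58.9% were well above background, and 0 were saturated. Genes were named through RefSeq accessions, which matched 38222 spots (65.1%). The spots of a probe were averaged, and the brightest probe by mean log2 signal stood for a gene. A gene measured on a single array was given a bound, its bright signal over either its own dim signal or the other array's lowest flagged signal, whichever was higher, written as at least that fold. Below background on both arrays, no ratio was given. Errors are the SD over 10 spots or the error propagated by Feature Extraction for 1 spot. Differences between cultures are not in them. No test was run. Promoter sequences came from RefSeq on GRCh38.p14, the neighbours' order from its gene table.

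The genes described and the gene lists were chosen with earlier results of these data known. The genes named are POSTN, the 6 OAS and MX genes, list members that give a list's range, pass 3-fold or act in 2-5A or RNA sensing, the 3 neighbours on each side and the 5 genes nearest to the brightest of the 6. Those named beside this rule (such as ISG15, SOCS1, USP18 and the markers) were chosen after their values were seen. Scaling and calls were tested on simulated data, bounds were not. The alternatives were normexp with an offset of 50, quantile normalization, no scaling, median scaling, the percentile over spots well above background on both arrays, loess with a span of 0.3, the deposited table, the mean over probes, filters on dim and outlier-flagged spots, the median over spots, and thresholds of 2-fold and 4-fold. Analyses used Python 3.11.15 with numpy 2.4.6, pandas 2.3.3 and matplotlib 3.10.9, and R 4.3.3 with limma 3.58.1. The probes' own sequences were not used here, and some list members are not reported here.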

Additional observations from a re-analysis of the deposited data

How the results depend on the processing

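No paired analysis was possible because there is 1 array per group, and leaving out an array would leave no comparison. Of the 11 processings, the normexp background correction moved values most. The POSTN log2 ratio was then -2.99 and the median of the OAS and MX genes 0.94. With normexp, 7 of the 68 pathway list genes with a ratio were more than 3-fold higher, beside 0.892% of all genes. In the main processing this count was 13 of 68, beside 3.37%. The median of the OAS and MX genes was 1.35 both with a gene's probes averaged and with only probes well above background on both arrays, since OAS1 then has no value. The pathway count was 24 at a 2-fold threshold, beside 7.97% of all genes, and 7 at a 4-fold threshold, beside 1.73%. The number of OAS and MX genes past 3-fold was 3 of 6 in the main processing, beside 3.37% of all genes. It was 2 of 6 with normexp, beside 0.892%. It was 2 of 5 in both processings where OAS1 has no value, beside 2.52% with probes averaged and 2.7% with the filter on dim probes. At 2-fold it was 4 of 6, beside 7.97% of all genes, and at 4-fold 3 of 6, beside 1.73%. Over all genes, median scaling moved the median log2 ratio from 0.06 to -0.07. Among the genes past 3-fold, 55.1% were higher in the main processing (541 higher and 441 lower), 46.3% with median scaling (453 and 525) and 42.9% with normexp (143 and 190). The causes of these shifts were not tested. Signals near background limit OAS1, 1 OAS2 probe and 1 OAS3 probe.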

Other observations

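The array also holds a pair of probes whose names in the scanner files refer to long noncoding RNAs near MX1, which were not counted among the MX probes. The probe named lnc-MX1-3:4 had a scaled signal of 177 with control siRNA and 229 with periostin siRNA, giving a log2 ratio of 0.37 ± 0.20 (propagated error, 1 spot), and the probe named lnc-MX1-1:1 was below background on both arrays.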
